A study of Mus musculus with 14 samples.

Results

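The SLC25 mitochondrial carrier family was taken as every gene of the P23 brain table that was annotated as protein coding and whose symbol began with Slc25a, which gave 47 genes of 56748 in all. Of these, 40 had enough counts to be tested between genotypes, and the other 7 are described at the end. Brains came from postnatal day 23 (P23) mice of strain C57BL6/J, and RNA was taken from 1 sagittal side of each whole brain. The 7 Rik null animals (4 female, 3 male) were homozygous for a null allele of 2310061I04Rik, here called Rik, and the 7 WT animals (3 female, 4 male) were, per the study's methods, their littermates. The allele is a small intronic deletion that arose spontaneously in an embryonic stem cell clone during targeting of another gene on the same chromosome, Traf7, and the line was bred to C57BL/6 mice to separate it from the targeted gene. The allele acts in the whole body, and the study describes the animals as runted, ataxic and close to death at this age, so effects of the gene and of illness cannot be told apart here.

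SLC25 proteins sit in the inner mitochondrial membrane, with a few exceptions in the outer membrane or in peroxisomes, and pass metabolites, nucleotides, cofactors and ions between the matrix and the cytosol. They share a fold made of 3 repeats and usually work by exchanging one substrate for another, for example ADP for ATP. In brain, members of the family carry the ATP made by respiration, feed the malate-aspartate shuttle of neurons, move glutamate into mitochondria, and bring in the iron used to build heme and iron-sulfur clusters. All are encoded in the nucleus.

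Rik itself had 1.03 to 3.37 CPM in Rik null libraries, against 30.3 to 40.9 CPM in WT libraries, so every library matched its label. CPM are read counts scaled to the size of each library, as given under the processing. Total counts ranged from 14.7 to 17.9 M over the 14 libraries. Rik null replicate 1 and WT replicate 4 stood apart from the rest of their genotype in a principal component analysis, and results were also computed without them. Whole-brain RNA mixes cell types. The summed level of 8 myelinating oligodendrocyte markers was 12760 to 15780 CPM in Rik null and 18160 to 22580 CPM in WT, that of 5 microglia markers 134 to 182 CPM in Rik null and 226 to 299.5 CPM in WT, and that of 6 astrocyte markers 3755 to 4484 CPM in Rik null and 4925 to 6082 CPM in WT. Fewer cells of a type and less RNA per cell cannot be told apart in such samples.

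The family as a whole kept a similar summed level, and its 40 tested members moved in both directions by less than 2-fold. Together the 47 genes took 2892 to 3298 CPM in Rik null libraries and 2795 to 3309 CPM in WT libraries, and these ranges overlap almost entirely. In the quasi-likelihood F test of edgeR, with p-values adjusted after Benjamini and Hochberg over all 16882 tested genes, 8 members rose and 13 fell in Rik null brains at a threshold of 0.05. These 21 are 52.5% of the 40 members tested, beside 34.4% of all genes tested (16.5% higher and 17.9% lower). The median log2 fold change was -0.06 over the members and -0.0005 over all genes. The Rik null and WT libraries did not overlap for 7 members, or 17.5% of those tested, beside 12.4% of all genes. These were Slc25a28 and Slc25a12, which were higher in Rik null, and Slc25a1, Slc25a39, Slc25a23, Slc25a25 and Slc25a20, which were lower. In edgeR 0 members passed at a change of at least 2-fold with either the adjusted or the unadjusted p. By adjusted p, 3.54% of all genes did. In DESeq2 1 member, Slc25a21, passed at 2-fold. This gene was below the count filter of the edgeR test, and edgeR without that filter called it as well (log2 fold change -1.49, adjusted p = 0.0146). In all 26 alternative analyses, Slc25a28, Slc25a1, Slc25a39 and Slc25a23 remained past the threshold, and 15 of the 21 did so when any single library was left out.

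**Figure D1:**
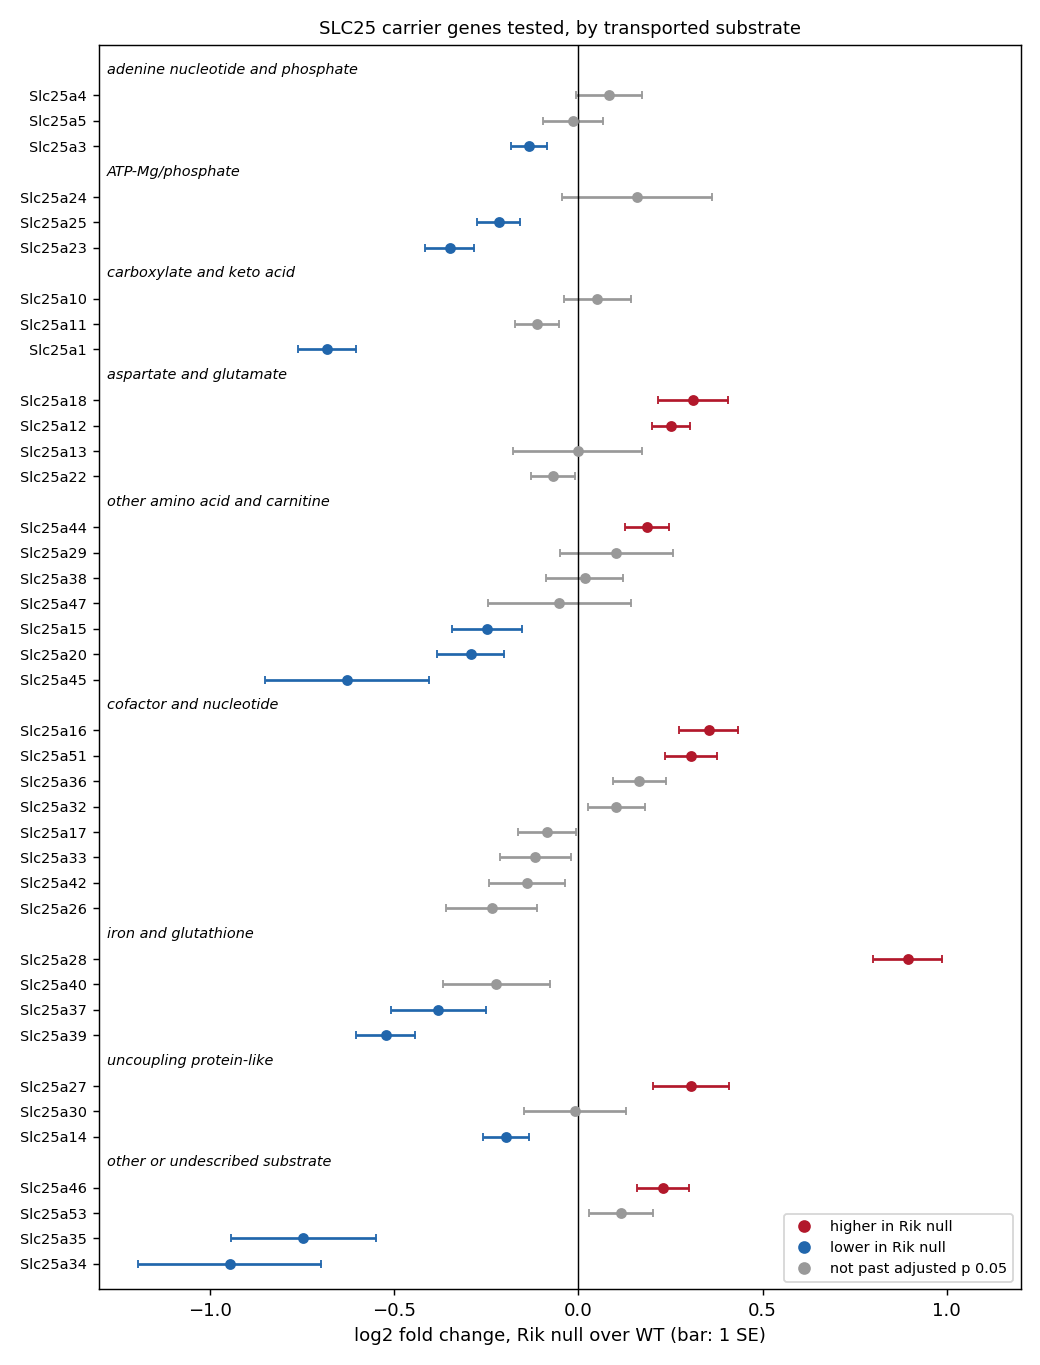
Fold change of 39 of the 40 tested SLC25 genes, grouped by transported substrate. Points are log2 fold changes of Rik null over WT from edgeR and bars are 1 SE (7 libraries per genotype). Red points were higher (8), blue points lower (12), and grey points (19) did not pass an adjusted p of 0.05; all lie between -0.95 and 0.89.

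Upstream sequence is shown for 3 called members, the one of smallest p in each direction and Slc25a25, whose window holds a cAMP response element. Of the 47 members, 36 had an entry in the RefSeq promoter table (GRCm38.p6), with 46 start sites in all, and the 250 bases before each start were searched on both strands. Each line gives the strand of the gene, 5′ to 3′, and capitals mark a motif. The Slc25a28 window (chr19:43674882-43675131, minus strand) held none of the motifs, the Slc25a1 window (chr16:17928220-17928469, minus strand) an E-box, and the Slc25a25 window (chr2:32424067-32424316, minus strand, at an internal start site of the gene) a cAMP response element.
Slc25a28: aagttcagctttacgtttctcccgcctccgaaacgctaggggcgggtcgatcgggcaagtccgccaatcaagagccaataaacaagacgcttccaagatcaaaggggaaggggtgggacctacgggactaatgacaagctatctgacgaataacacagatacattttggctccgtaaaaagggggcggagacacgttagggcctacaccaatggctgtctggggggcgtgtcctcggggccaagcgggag
Slc25a1: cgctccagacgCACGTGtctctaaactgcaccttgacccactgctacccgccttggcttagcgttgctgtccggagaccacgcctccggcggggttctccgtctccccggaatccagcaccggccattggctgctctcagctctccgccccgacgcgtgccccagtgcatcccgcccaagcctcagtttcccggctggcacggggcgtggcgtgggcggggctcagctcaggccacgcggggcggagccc
Slc25a25: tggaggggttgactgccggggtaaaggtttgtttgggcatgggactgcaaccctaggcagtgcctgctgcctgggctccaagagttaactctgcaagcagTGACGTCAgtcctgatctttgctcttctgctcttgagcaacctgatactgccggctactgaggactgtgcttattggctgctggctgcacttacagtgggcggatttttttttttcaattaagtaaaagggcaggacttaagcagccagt
The E-box (CACGTG) was found in 8 of the 46 member windows, or 17.4%, and in 6.02% of 32851 windows of all genes. Windows of nearby start sites overlap, so that the same site in Slc25a14 was counted in 2 windows. These 8 windows belonged to 7 genes, among them Slc25a1, Slc25a14 and Slc25a15, which were lower in Rik null, and Slc25a13, Slc25a33 and Slc25a36, which did not pass. A cAMP response element (TGACGTCA) stood in 4.35% of member windows, those of Slc25a25 and Slc25a36, beside 1.55% of all. The NRF1 motif (GCGCANGCG, a core), named for nuclear respiratory factor 1, stood in 4.35% of member windows, those of Slc25a3 and Slc25a31, beside 5.16% of all. The sterol response element (TCACNCCAC) stood in 2.17% of member windows, that of Slc25a18, beside 1.05% of all, and the GABP motif (CCGGAAGT) likewise in 2.17%, that of Slc25a20, beside 2.88% of all. No member window held the estrogen-related receptor motif (TCAAGGTCA), the FoxO motif (GTAAACA) or the CARE motif (TGATGNAAT), which stood in 0.387%, 3.17% and 0.816% of all windows. No 2 of these motifs overlapped in the windows printed. Such matches describe letters only.

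Iron and glutathione carriers included 2 of the 3 members of smallest p, 1 higher and 1 lower in Rik null. Slc25a28 encodes mitoferrin 2, which brings iron into mitochondria in most tissues, and Slc25a37 encodes mitoferrin 1, its relative that is abundant in red cell precursors. Slc25a28 (GRCm38 chr19:43663801-43674881) had a lowest, median and highest level of 34.4, 36.5 and 51.1 CPM in Rik null brains, against 17.7, 21.4 and 22.9 CPM in WT brains. Every Rik null library lay above every WT library, and Rik null replicate 1 was the highest. The log2 fold change was 0.89 (SE 0.09, adjusted p = 4.43e-07), or 1.86-fold. Slc25a37 (chr14:69241848-69285112) had 11.0, 16.5 and 19.0 CPM in Rik null, against 15.1, 20.0 and 26.7 CPM in WT. Its ranges overlap, and Rik null replicate 1, the highest library for Slc25a28, was the lowest for Slc25a37. Its log2 fold change was -0.38 (SE 0.13, adjusted p = 0.0278), and it did not pass without Rik null replicate 1 or 5 or WT replicate 3 or 6 (adjusted p = 0.0601 to 0.0650), nor with scaling by library size alone (adjusted p = 0.0783). Markers of red cells moved the same way as Slc25a37, with 5 of the 5 tested lower, beside 17.9% of all genes tested. Their summed level was 222 to 387 CPM in Rik null and 378 to 781 CPM in WT, and their part in the result of Slc25a37 was not tested. Exons of Slc25a37 share 381 and 92 bases with 2 genes on the opposite strand, so its counts are uncertain if strand was not used.

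Within each library the ratio of both mitoferrins does not depend on scaling. The log2 ratio of Slc25a28 to Slc25a37 averaged 1.29 ± 0.46 in Rik null and 0.02 ± 0.20 in WT (SD over 7 libraries per genotype). Both genes were thus at about the same read count in WT brains, while every Rik null library held more Slc25a28 reads. The difference of 1.27 gave p = 5.83e-04 in an exact two-sided permutation test over samples, which is the smallest p that 7 against 7 libraries can give, and an adjusted p of 0.00758 over 13 pairs of related carriers.

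Slc25a39 and Slc25a40 encode carriers needed for glutathione import into mitochondria. For Slc25a39 (chr11:102402985-102407946) the levels were 28.8, 38.5 and 42.9 CPM in Rik null, against 50.0, 55.0 and 60.0 CPM in WT. The genotypes did not overlap, and Rik null replicate 1 was the lowest library. The log2 fold change was -0.52 (SE 0.08, adjusted p = 3.64e-05). Its relative Slc25a40 had 9.42, 11.8 and 16.0 CPM in Rik null and 9.69, 13.6 and 17.4 CPM in WT, with a log2 fold change of -0.22 that did not pass (adjusted p = 0.247). The ratio of Slc25a39 to Slc25a40 differed by -0.31 on the log2 scale, which did not pass either (exact permutation p = 0.151, adjusted p = 0.187).

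**Figure D2:**
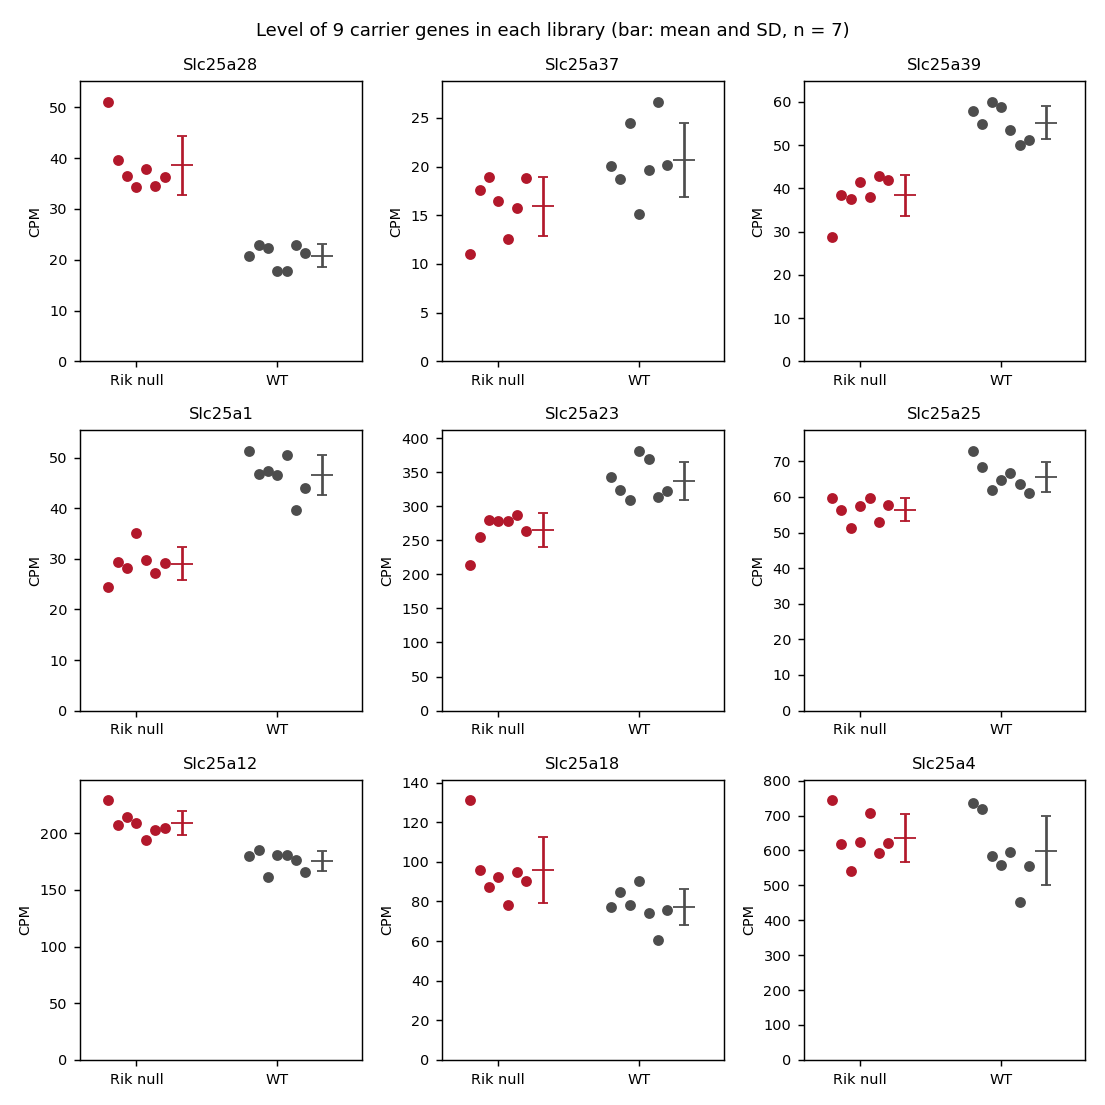
Levels of 9 SLC25 genes in CPM, 1 point per library, with Rik null on the left and WT on the right of each panel. Bars are means with SD (n = 7 each). Slc25a28 and Slc25a12 are higher and Slc25a39, Slc25a1, Slc25a23 and Slc25a25 lower in Rik null with no overlap, whereas Slc25a37, Slc25a18 and Slc25a4 overlap.

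Among the tested carriers of carboxylates, Slc25a1 fell, and its relatives Slc25a10 and Slc25a11 did not pass. Slc25a21 was below the count filter and is described with the other such members. Slc25a1 is the citrate carrier, which exports citrate for fatty acid and sterol synthesis in the cytosol. Slc25a1 (chr16:17925223-17928219) had 24.4, 29.1 and 35.1 CPM in Rik null brains, against 39.6, 46.7 and 51.3 CPM in WT brains. The highest Rik null library was below the lowest WT library. The log2 fold change was -0.68 (SE 0.08, adjusted p = 1.43e-06), or 0.623 of the WT level. Slc25a11, the oxoglutarate carrier of the malate-aspartate shuttle, had 89.9, 98.0 and 103 CPM in Rik null and 91.9, 104 and 122 CPM in WT (log2 fold change -0.11, SE 0.06, adjusted p = 0.154). Slc25a10, the dicarboxylate carrier, showed a difference of 0.05 on the log2 scale (adjusted p = 0.697). A list of 6 genes linked to cytosolic citrate and fatty acid synthesis was also examined, not all of which act on citrate itself. Of these, 5 (83.3%) were lower in Rik null, beside 17.9% of all genes tested, with a median log2 fold change of -0.21. Malic enzyme Me1 (-0.43, adjusted p = 2.96e-05) and the ATP citrate lyase Acly (-0.31, adjusted p = 1.93e-04) had the smallest p, followed by Aco1 (-0.20, adjusted p = 0.0127) and the fatty acid synthase Fasn (-0.21, adjusted p = 0.0303). The markers of myelinating oligodendrocytes given above, 8 of 8 of them lower, moved in the same direction as Slc25a1, and their part in its change was not tested.

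Carriers of aspartate and glutamate were higher or did not pass. Slc25a12, called aralar, is the aspartate-glutamate carrier of neurons and feeds their malate-aspartate shuttle. Slc25a12 (chr2:71271063-71367749) had 194, 208 and 229 CPM in Rik null, against 162, 180.3 and 185 CPM in WT. Its groups did not overlap although the difference was small, at 0.25 on the log2 scale (SE 0.05, adjusted p = 7.43e-04). Of 7 neuron markers 1 was higher and 2 were lower, or 42.9%, beside 34.4% of all genes tested. Their summed level was 5278 to 5805 CPM in Rik null and 5615 to 6110 CPM in WT. Citrin, encoded by Slc25a13, is the aspartate-glutamate carrier best known from liver and had 3.16 to 6.58 CPM in Rik null and 3.37 to 5.72 CPM in WT (log2 fold change -0.002, adjusted p = 0.995). The 4 enzymes of the malate-aspartate shuttle did not pass, with log2 fold changes of 0.03 to 0.10 (adjusted p = 0.162 to 0.686).

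Slc25a18 encodes the glutamate carrier found mainly in astrocytes. It had 78.1, 92.5 and 131 CPM in Rik null, against 60.6, 77.0 and 90.3 CPM in WT, so the groups overlap, and Rik null replicate 1 was far above the other Rik null libraries (78.1 to 96.0 CPM). The log2 fold change was 0.31 (SE 0.10, adjusted p = 0.0147). Slc25a22, the more widely expressed glutamate carrier, had 167, 189 and 204 CPM in Rik null and 175, 192 and 221 CPM in WT (log2 fold change -0.07, adjusted p = 0.404). The ratio of Slc25a18 to Slc25a22 averaged -0.96 ± 0.31 in Rik null and -1.33 ± 0.16 in WT on the log2 scale (SD over 7 libraries per genotype; difference 0.37, exact permutation p = 0.00408, adjusted p = 0.0133). Slc25a18 was higher although 4 of 6 astrocyte markers (66.7%) were lower, beside 17.9% of all genes tested. The part of these markers in the level of Slc25a18 was not tested. Slc25a18 and Atp6v1e1 share 32 exon bases on opposite strands, and Atp6v1e1, at 439 CPM on average in Rik null and 346 CPM in WT, was higher as well (log2 fold change 0.34, adjusted p = 9.64e-04).

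The ADP/ATP carriers, the most abundant members, did not pass, and the phosphate carrier was slightly lower in Rik null. Levels between genes are compared in FPKM, which divides by gene length. Slc25a4, the ADP/ATP carrier of muscle and brain, had a median of 256 FPKM over all libraries, Slc25a5, the ADP/ATP carrier of growing cells, 148 FPKM, Slc25a23 55.8 FPKM, the phosphate carrier gene Slc25a3 53.0 FPKM, Slc25a11 47.2 FPKM and Slc25a18 44.6 FPKM. Slc25a4 stood above Slc25a5 in all libraries, whereas the last 4 of this order lie close to each other and their ranges overlap. In CPM, Slc25a4 had 540.4, 621 and 744 in Rik null and 451, 583 and 735 in WT (log2 fold change 0.08, SE 0.09, adjusted p = 0.498). Slc25a5 had 218, 245 and 286 CPM in Rik null and 189, 241 and 295 CPM in WT (log2 fold change -0.01, SE 0.08, adjusted p = 0.910). Neither differed beyond its spread, yet their ratio was more even among libraries than their levels. The log2 ratio of Slc25a4 to Slc25a5 averaged 1.36 ± 0.08 in Rik null and 1.26 ± 0.04 in WT (SD over 7 libraries per genotype), a difference of 0.10 (exact permutation p = 0.00408, adjusted p = 0.0133), and Rik null replicate 1 was the highest at 1.54. Slc25a3 had 264, 279.5 and 302 CPM in Rik null and 292, 304 and 334 CPM in WT, with overlapping ranges (log2 fold change -0.13, SE 0.05, adjusted p = 0.0412). Its call was lost without any one of 9 libraries, Rik null replicates 2, 3, 5, 6 and 7 and WT replicates 1, 2, 3 and 7 (adjusted p = 0.0615 to 0.0830), without the count filter (adjusted p = 0.111), and with scaling by library size alone, where the log2 fold change was -0.06 (adjusted p = 0.326).

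**Figure D3:**
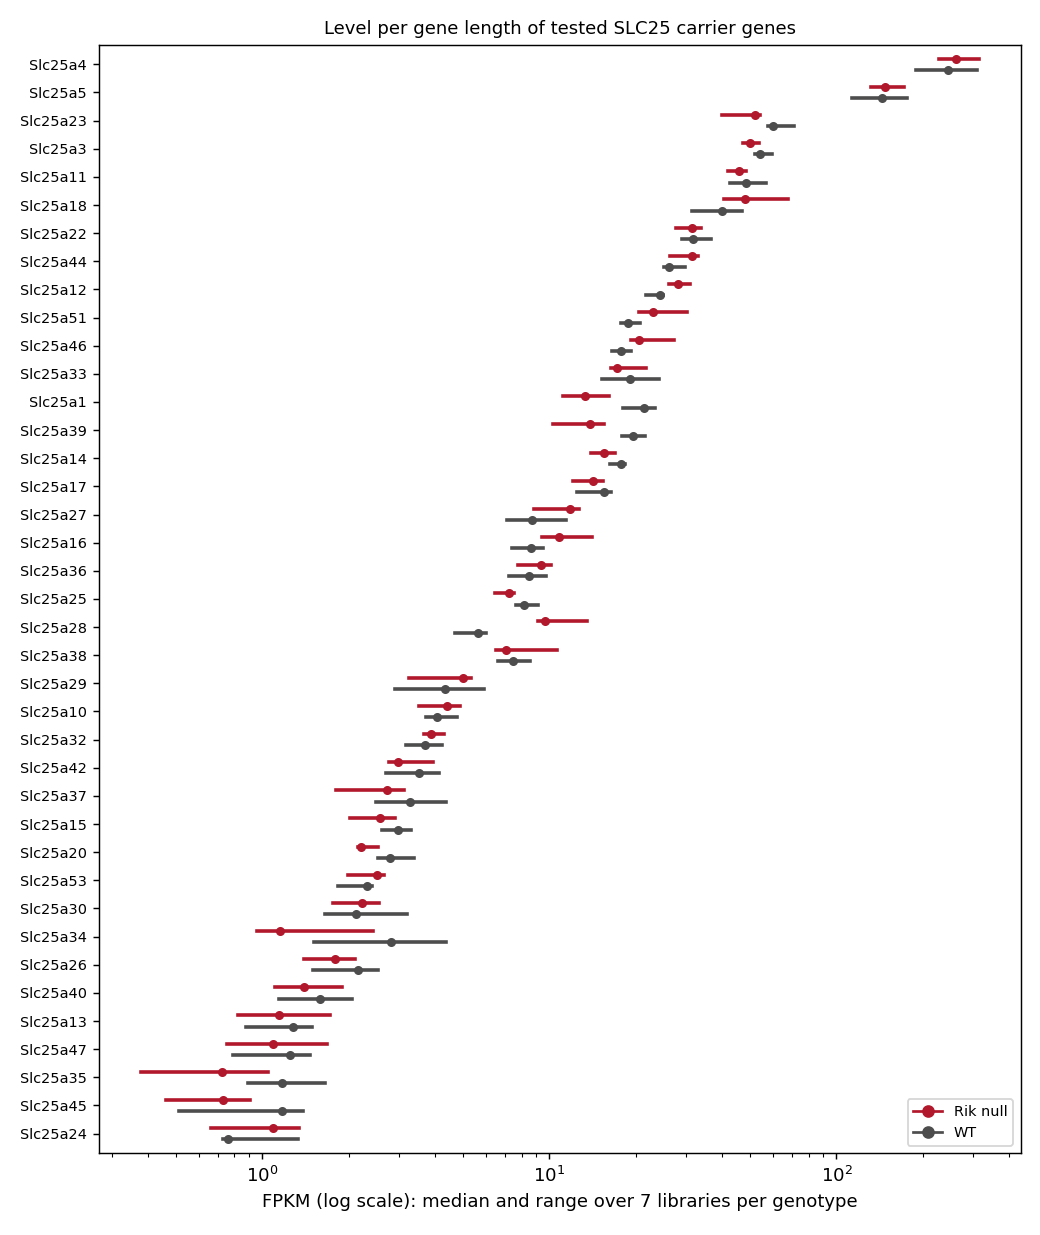
FPKM of 39 of the 40 tested SLC25 genes on a log scale, ordered by the median over all libraries. Points are medians and lines run from the lowest to the highest of 7 libraries, with Rik null above WT for each gene. Slc25a4 (256 FPKM) and Slc25a5 (148 FPKM) exceed the other members.

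ATP-Mg/phosphate carriers adjust the adenine nucleotide content of the matrix and respond to calcium. Against 17.9% of all genes tested, 2 of the 3 tested carriers (66.7%) were lower. Slc25a23, the most abundant of them in brain, had 213, 278 and 287 CPM in Rik null, against 309.5, 324 and 381 CPM in WT. No Rik null library reached the WT range, and Rik null replicate 1 was lowest (log2 fold change -0.35, SE 0.07, adjusted p = 3.89e-04). Its exons share 168 bases with Gm17168 on the opposite strand. Slc25a23 (chr17:57043711-57059863) lies on the chromosome of Rik, 21.1 Mb beyond its end, and any part of that position in the result was not tested. Slc25a25 (chr2:32414487-32451445) had 51.3, 57.3 and 59.8 CPM in Rik null, against 61.0, 64.7 and 72.9 CPM in WT, again without overlap (log2 fold change -0.22, SE 0.06, adjusted p = 0.00719). Slc25a25 shares 379 exon bases with Naif1 on the opposite strand, which had only 3.82 CPM on average in Rik null and 4.93 CPM in WT. The least abundant member tested, Slc25a24, had 2.31 to 4.65 CPM in Rik null and 2.52 to 4.63 CPM in WT (log2 fold change 0.16, SE 0.20, adjusted p = 0.577). Its ratios to both relatives did not pass: the ratio of Slc25a23 to Slc25a24 differed by -0.51 (exact permutation p = 0.0256, adjusted p = 0.0556) and that of Slc25a24 to Slc25a25 by 0.38 (exact permutation p = 0.110, adjusted p = 0.179). The first of these passed without Rik null replicate 7 or WT replicate 5 or 6, at an adjusted p of 0.0366, 0.0417 and 0.0278.

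Cofactor and nucleotide carriers had 2 members higher and 1 lower of 9, or 33.3%, beside 34.4% of all genes tested. Slc25a16, linked to coenzyme A supply of mitochondria, had 45.8, 52.0 and 68.5 CPM in Rik null, against 36.0, 41.7 and 46.1 CPM in WT (log2 fold change 0.35, SE 0.08, adjusted p = 0.00189). A single Rik null library lay inside the WT range. Slc25a42, a coenzyme A carrier, showed a difference of -0.14 on the log2 scale (adjusted p = 0.313), and the ratio of Slc25a16 to Slc25a42 was 1.50 ± 0.29 in Rik null and 1.02 ± 0.28 in WT on the log2 scale (SD over 7 libraries per genotype; difference 0.48, exact permutation p = 0.00991, adjusted p = 0.0258). Without both libraries that stood apart this ratio did not pass (difference 0.35, adjusted p = 0.0957). Slc25a51, the NAD carrier, had 114, 127 and 168 CPM in Rik null, against 99.3, 104 and 116 CPM in WT (log2 fold change 0.31, SE 0.07, adjusted p = 0.00194). Rik null replicate 1 was the highest, the other 6 Rik null libraries reached 132 CPM, and only the lowest of them lay inside the WT range. Its exons share 125 bases with Gm25692, a miRNA gene on the same strand. The pyrimidine nucleotide carrier genes Slc25a33 (log2 fold change -0.12) and Slc25a36 (0.17), the folate or flavin carrier gene Slc25a32 (0.10), the S-adenosylmethionine carrier gene Slc25a26 (-0.23) and the peroxisomal Slc25a17 (-0.08) did not pass (adjusted p = 0.0815 to 0.437). Of these Slc25a36 passed under 3 alternatives, leaving out Rik null replicate 5 (adjusted p = 0.0304) or WT replicate 3 (adjusted p = 0.0264) and library size alone (adjusted p = 0.0238). Of 17 genes of nucleotide and coenzyme supply, 3 were higher and 5 lower, or 47.1%, beside 34.4% of all genes tested (median log2 fold change 0.08). The S-adenosylmethionine synthase Mat2a was higher (0.34, adjusted p = 9.32e-05), the flavin synthase Flad1 lower (-0.48, adjusted p = 3.27e-04), and the pantothenate kinases Pank2 higher (0.33, adjusted p = 0.00159) and Pank3 lower (-0.31, adjusted p = 0.00266).

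Carriers of other amino acids and of carnitine had 1 higher and 3 lower of 7 tested, or 57.1%, beside 34.4% of all genes tested. Slc25a44, the branched-chain amino acid carrier, had 95.1, 113 and 119 CPM in Rik null, against 90.9, 94.6 and 108 CPM in WT, with overlap (log2 fold change 0.19, SE 0.06, adjusted p = 0.0181), and it did not pass without the count filter (adjusted p = 0.0573). Slc25a20, which exchanges acylcarnitines for carnitine in fatty acid oxidation, had 10.6, 10.8 and 12.4 CPM in Rik null, against 12.4, 13.6 and 16.4 CPM in WT (log2 fold change -0.29, SE 0.09, adjusted p = 0.0157). Its genotypes met at 12.4 CPM without crossing, and it did not pass with scaling by library size alone (adjusted p = 0.0586) or without the count filter (adjusted p = 0.0557). Of 5 carnitine system enzymes tested, 2 (40%) were lower, beside 17.9% of all genes tested. These were Cpt1a (-0.41, adjusted p = 0.00124) and Crot (-0.27, adjusted p = 0.00770), while Cpt2 (-0.35, adjusted p = 0.0551) and Crat (-0.08, adjusted p = 0.359) did not pass. Slc25a15, the ornithine carrier of the urea cycle, had 11.5, 14.6 and 16.5 CPM in Rik null, against 14.8, 17.0 and 18.8 CPM in WT (log2 fold change -0.25, SE 0.09, adjusted p = 0.0464). This is the weakest call of the family: it held in 7 of 26 alternatives and was lost without any one of 10 libraries, Rik null replicates 1, 3, 5, 6 and 7 and WT replicates 1, 2, 3, 6 and 7 (adjusted p = 0.0518 to 0.107). Slc25a45 had only 23 to 42 counts per library in Rik null and 21 to 57 in WT, or 1.29, 2.03 and 2.53 CPM in Rik null and 1.43, 3.26 and 3.91 CPM in WT (log2 fold change -0.63, SE 0.22, adjusted p = 0.0333). Leaving out Rik null replicate 1, 3 or 7 or WT replicate 2, 4, 5 or 6 ended its call (adjusted p = 0.0531 to 0.0709), as did scaling by library size alone (adjusted p = 0.0541), no count filter (adjusted p = 0.0602) and leaving out both libraries that stood apart (adjusted p = 0.111). The basic amino acid carrier gene Slc25a29 (log2 fold change 0.10), the glycine carrier gene Slc25a38 (0.02) and Slc25a47 (-0.05) did not pass (adjusted p = 0.638 to 0.913).

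Genes related to uncoupling proteins moved in opposite directions. Slc25a27, also called UCP4 and found mainly in neurons, had 35.2, 46.8 and 50.3 CPM in Rik null, against 28.2, 34.7 and 45.8 CPM in WT (log2 fold change 0.31, SE 0.10, adjusted p = 0.0265). The ranges overlap, and the call was lost without Rik null replicate 2 or WT replicate 1, 2 or 5 (adjusted p = 0.0542 to 0.0643). It was lost as well without both libraries that stood apart (adjusted p = 0.0804) and in males alone (log2 fold change 0.11, adjusted p = 0.663). Slc25a27 lies on chromosome 17 as well, 7.74 Mb beyond the end of Rik. Slc25a14, also called UCP5, had 33.3, 37.0 and 40.5 CPM in Rik null, against 38.9, 42.6 and 43.9 CPM in WT (log2 fold change -0.19, SE 0.06, adjusted p = 0.0192). It did not pass with scaling by library size alone (adjusted p = 0.125) or without the count filter (adjusted p = 0.0635). The log2 ratio of Slc25a14 to Slc25a27 averaged -0.26 ± 0.26 in Rik null and 0.25 ± 0.22 in WT (SD over 7 libraries per genotype), so that Slc25a27 had more reads than Slc25a14 on average in Rik null and fewer in WT (difference -0.51, exact permutation p = 0.00408, adjusted p = 0.0133). Slc25a30, the kidney-enriched relative, showed a difference of -0.01 on the log2 scale (adjusted p = 0.969).

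**Figure D4:**
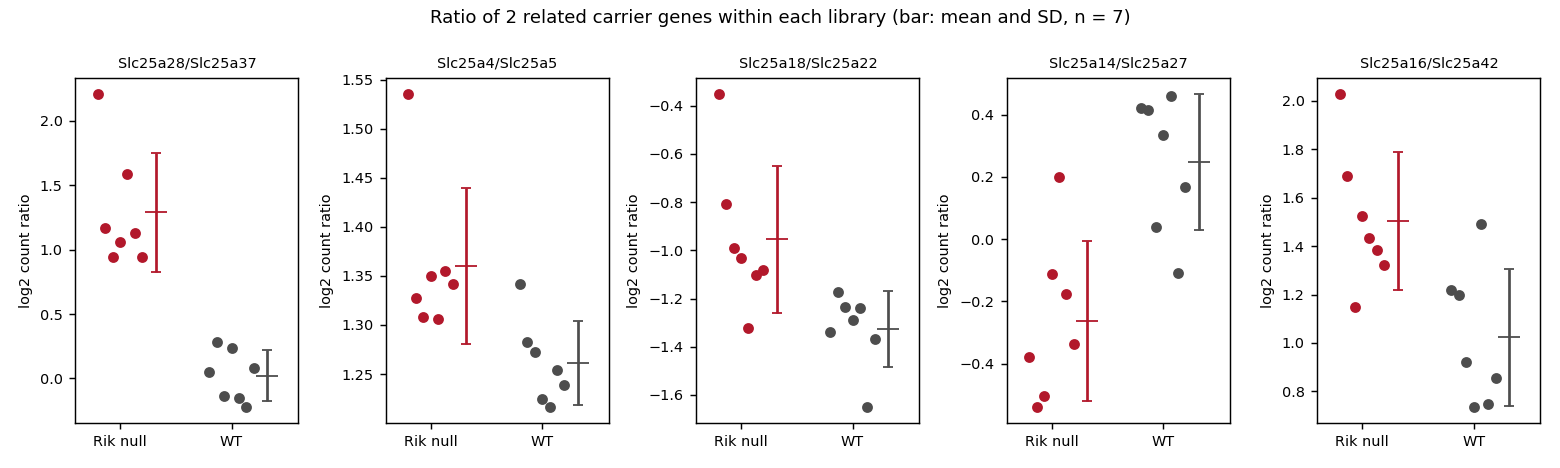
Log2 ratio of the read counts of 2 related SLC25 genes within each library (0.5 count added), for the 5 pairs of 13 that passed the exact permutation test. Points are libraries, with Rik null on the left and WT on the right of each panel, and bars are means with SD (n = 7 each); the axes do not start at 0. The genotypes are apart for Slc25a28/Slc25a37 and overlap for the other 4 pairs.

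Of the 13 pairs of related carriers, 5 had a ratio that differed between genotypes, and 4 of these kept an adjusted p under the threshold in each of 18 alternatives, Slc25a16/Slc25a42 being the exception. The other 8 pairs did not pass (adjusted p = 0.0556 to 0.707). Among them the ratio of Slc25a12 to Slc25a13 differed by 0.28 (adjusted p = 0.187), although Slc25a12 was called and Slc25a13 was not.

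Members with other or undescribed substrates held the largest falls among the 40 tested members, at low counts. Slc25a34 had 2.58, 3.10 and 6.58 CPM in Rik null, against 4.10, 7.54 and 11.7 CPM in WT (log2 fold change -0.95, SE 0.25, adjusted p = 0.00560). Slc25a35 had 1.41, 2.70 and 3.89 CPM in Rik null, against 3.34, 4.39 and 6.14 CPM in WT (log2 fold change -0.75, SE 0.20, adjusted p = 0.00570). Both overlapped between genotypes, with 45 to 187 counts per library for Slc25a34 and 25 to 90 for Slc25a35. Slc25a35 shares 1151 exon bases with Rangrf on the opposite strand, so its reads are uncertain if strand was not used. Slc25a46, an outer membrane member that acts in mitochondrial shape, had 105, 112 and 149 CPM in Rik null, against 90.7, 97.9 and 106 CPM in WT (log2 fold change 0.23, SE 0.07, adjusted p = 0.0144). Its highest library was Rik null replicate 1 and the other 6 Rik null libraries reached 119.9 CPM. Slc25a46 shares 383 exon bases with B930094E09Rik on the opposite strand, and its counts are uncertain in the same way. Slc25a53, whose substrate is undescribed, showed a difference of 0.12 on the log2 scale (adjusted p = 0.316).

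The 7 members below the count filter were Slc25a2, Slc25a21, Slc25a31, Slc25a41, Slc25a43, Slc25a48 and Slc25a54. Slc25a21, the oxodicarboxylate carrier, had the most counts among them, 2 to 11 per library and 44 in all in Rik null, and 7 to 25 per library and 113 in all in WT. Its ranges overlap, and it was lower with DESeq2 (log2 fold change -1.50, SE 0.44, adjusted p = 0.00406) and in edgeR without the filter (-1.49, SE 0.45, adjusted p = 0.0146). The testis ADP/ATP carrier gene Slc25a31 had 6 counts in all in Rik null and 22 in WT, and the other 5 had 2 to 26 counts in all in Rik null and 8 to 27 in WT. None of these 6 passed in edgeR without the filter (adjusted p = 0.189 to 0.865), nor did the 4 of them to which DESeq2 gave an adjusted p (0.232 to 0.879), and DESeq2 gave none for Slc25a41 and Slc25a54.

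A difference between the sexes in the effect of genotype was not detected for any member. In edgeR, 0 of 16882 genes (0%), and so 0 of 40 members, had a genotype by sex interaction at an adjusted p of 0.05. The smallest unadjusted p was that of Slc25a1, whose log2 fold change was 0.36 higher in males than in females (SE 0.14, adjusted p = 0.832). Slc25a40 (-0.62), Slc25a27 (-0.44) and Slc25a17 (0.32) followed.

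The lower members tended to be richer in GC than the higher ones. Across the 40 tested members the log2 fold change had a Spearman correlation of -0.343 with the GC content of the longest transcript and of 0.076 with gene length, beside -0.040 over 16675 genes and -0.007 over 16882 genes. The median GC content was 48.9% for the 8 higher members and 53.2% for the 13 lower ones, with ranges of 40.8% to 53.6% and 43.6% to 59.7%. Genes are not independent replicates, and these values are descriptions.

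Other genes of mitochondrial transport moved in both directions too. Over all genes tested 34.4% passed, with 16.5% higher and 17.9% lower. The share was 50% both for SLC25 proteins with other symbols and for other inner membrane transporters. It was 44.4% for iron-sulfur and heme genes, 40% for the TIM22 route, 40% for creatine and adenylate kinases and 0% for outer membrane pores. All of these lists are short. SLC25 proteins with other symbols had 2 lower of 4 tested, Ucp3 (log2 fold change -0.65, SE 0.25, adjusted p = 0.0478) and Mtch1 (-0.19, adjusted p = 0.0208), whereas Mtch2 (0.11, adjusted p = 0.118) and Ucp2 (-0.19, adjusted p = 0.236) did not pass. Ucp3 was at a low level with overlapping ranges, 0.713 to 2.47 CPM in Rik null and 1.78 to 3.64 CPM in WT. Of 18 other inner membrane transporters 3 were higher and 6 lower (median -0.07), with Sfxn5 (-1.05, adjusted p = 1.67e-09) and Abcb8 (-0.47, adjusted p = 3.19e-04) lower and Sfxn2 (0.62, adjusted p = 8.89e-04) higher. The TIM22 route, which inserts SLC25 proteins into the inner membrane, had 2 higher and 2 lower of 10. Its small chaperone Timm9 (0.58, adjusted p = 2.13e-06) and its subunit Timm29 (0.49, adjusted p = 5.56e-04) were higher, and Agk (-0.24, adjusted p = 0.0115) and the channel gene Timm22 (-0.30, adjusted p = 0.0124) lower. Genes of iron-sulfur and heme synthesis, which use the iron that mitoferrins bring in, had 2 higher and 6 lower of 18 (median -0.02), among them Uros (-0.65, adjusted p = 1.03e-04), Cpox (-0.51, adjusted p = 1.87e-04) and the red cell gene Alas2 (-0.74, adjusted p = 0.00102). The outer membrane pore genes Vdac1, Vdac2 and Vdac3 did not pass, with log2 fold changes of -0.01 to 0.05 (adjusted p = 0.510 to 0.927). Of 5 creatine and adenylate kinases, 2 were lower, Ak4 (-0.68, adjusted p = 3.64e-05) and Ckmt1 (-0.24, adjusted p = 0.00140), and Ak3 (-0.16, adjusted p = 0.0606) did not pass.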

How the data were processed

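RNA of 14 P23 brains (7 Rik null, 7 WT) was sequenced and processed by a commercial provider; groups, replicate numbers and sex came from the sample labels. The submitters' processing notes name the build GRCm38; how RNA was selected, the aligner, the counter and its annotation and strand setting were not given in the sources used here. Deposited were unnormalized read counts, FPKM (which the authors scaled to gene length and library size), signal columns that hold each genotype's average normalized level, and the log2 fold changes and p-values of the authors' own DESeq2 comparison. Counts were tested, FPKM served only to order levels between genes, and the authors' comparison columns were not used. There were 0 per-sample columns without a sample.

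Fits over all genes used edgeR 4.0.16 under R 4.3.3 (quasi-likelihood F test, glmQLFit at its defaults, with genotype as the only term, two-sided, after filterByExpr and scaling by the trimmed mean of M values, TMM), which left 16882 genes, with Benjamini-Hochberg adjustment over them and a threshold of 0.05. CPM are counts scaled to the TMM-adjusted library size, and the standard error (SE) was taken as the log2 fold change over the root of its F value. Libraries of one genotype varied by 14.3% (common biological coefficient of variation). Log2 ratios of related carriers (0.5 count added) were compared by exact permutation over samples (3432 arrangements), adjusted over 13 pairs. Each library came from a separate animal per the labels. Positions came from GENCODE M21 (GRCm38) by gene identifier, since the deposited table gives another start for all but 2 of the 47 members, and upstream sequences from RefSeq (GRCm38.p6), of which the 250 bases before each start were used.

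Alternatives were DESeq2 1.42.0, a replicate block, sex as a covariate, the robust option, scaling by RLE, by library size alone or without mitochondrial genes, a 1 CPM filter in 7 libraries or none beyond 1 count, each library left out in turn, both libraries that stood apart left out, and each sex alone. The members, lists, pairs and roles were chosen with earlier results of these data known. Every member is accounted for in the counts: those past the threshold and the 6 of highest median FPKM have their values given, the others ranges and counts, and each pathway list up to 4 genes of smallest p. A few genes that this rule would name are not reported here and enter only the counts.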

Additional observations from a re-analysis of the deposited data

Results flagged for a closer look

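Values of 106 groups of 7 libraries (member levels and pair ratios within a genotype) were screened for a single library far from the other 6. Such a library was found in 10 groups. Chance would give about 1 in 20 groups if they were independent. They share libraries and genes, however, so the count was not weighed against that rate. In 7 of the 10 the library was Rik null replicate 1. Slc25a51 was at 168 CPM there (the other Rik null libraries 114 to 132), Slc25a46 at 149 CPM (105 to 119.9), Slc25a18 at 131 CPM (78.1 to 96.0), Slc25a28 at 51.1 CPM (34.4 to 39.7) and Slc25a38 at 29.6 CPM (18.0 to 22.5), each the highest, whereas Slc25a39 was the lowest at 28.8 CPM (37.4 to 42.9). The log2 ratio of Slc25a4 to Slc25a5 was 1.54 in the same library (1.31 to 1.35 in the others). This library also stood apart over all genes, with a first principal component score of -54.5, while the remaining Rik null libraries scored between -23.8 and -22.0. Without it the calls of Slc25a51, Slc25a46, Slc25a18, Slc25a28 and Slc25a39 remained.

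Among WT libraries, Slc25a53 was lowest in replicate 4 at 14.8 CPM (17.5 to 19.4 in the others) and Slc25a45 was lowest in replicate 7 at 1.43 CPM (2.86 to 3.91). The log2 ratio of Slc25a18 to Slc25a22 was lowest in WT replicate 6 at -1.65 (-1.37 to -1.17 in the others).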

How the results depend on the processing

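No member changed direction past the threshold under any alternative. With library size alone 9 members were higher and 6 lower, so that 60% of the calls were higher, against 38.1% with TMM. In that fit 3890 of all 16882 genes were higher and 2208 lower, against 2783 and 3027 with TMM. All genes together shifted by a median of 0.07 on the log2 scale. Without the count filter 7 members were higher and 8 lower, Slc25a21 among the lower, beside 2690 and 2908 of 36521 genes. In females alone 3 members were higher and 5 lower, beside 1282 and 1592 of 17515 genes. In males alone 3 members were higher and 5 lower, beside 1241 and 1496 of 17303 genes. Each of these fits had fewer samples. Slc25a12 (adjusted p = 0.0586), Slc25a16 (adjusted p = 0.0829) and Slc25a35 (adjusted p = 0.194) missed the threshold only in females alone, and Slc25a51 (adjusted p = 0.0581) and Slc25a34 (adjusted p = 0.0807) only in males alone. Slc25a25, Slc25a18 and Slc25a46 missed it in each sex alone (adjusted p = 0.0525 to 0.252) and passed elsewhere. Slc25a3, Slc25a14, Slc25a15, Slc25a20 and Slc25a45 missed it with library size alone and without the filter, Slc25a37 with library size alone and Slc25a44 without the filter. Each sex alone also lost Slc25a3, Slc25a14, Slc25a15, Slc25a20, Slc25a44 and Slc25a45 (adjusted p = 0.06215 to 0.537). Slc25a27 missed it in males alone (adjusted p = 0.663) and Slc25a37 in females alone (adjusted p = 0.550). Leaving out each library in turn gave 7 to 9 higher and 10 to 12 lower members. Over all genes these fits gave 2564 to 2799 higher and 2765 to 2990 lower, of 16998 to 17166 genes. Without both libraries that stood apart 7 members were higher and 12 lower, Slc25a27 and Slc25a45 being lost, beside 2397 and 2727 of 16883 genes. DESeq2 called 8 members higher and 13 lower, with Slc25a21 in place of Slc25a15, beside 3106 and 3012 of 24148 genes. The labels give no pairing by replicate number. Same-numbered libraries had deviations correlated between -0.065 and 0.141, and 3 of 7 correlated best with their own number. Litter is not in the labels and entered no fit, so these values cannot decide on a pairing by litter. With the replicate block 8 members were higher and 12 lower, Slc25a15 being lost, beside 2898 and 3068 of 16882 genes. The cause of these changes was not tested. Members of low counts, such as Slc25a24, Slc25a13, Slc25a34, Slc25a35 and Slc25a45, had SEs of 0.18 to 0.25 on the log2 scale, so that small differences in them could not be seen.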
